A study of Mus musculus with 12 samples.

Results

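The genes described here are 42 members of the oxygen-sensing and glycolysis pathways, chosen by gene symbol from the 24421 symbols of the count tables of newborn mouse liver and lung. They comprised 3 HIF factors, 5 oxygen sensors, 16 hypoxia targets, 3 sugar and lactate transporters and 15 glycolytic enzymes with their regulators, and all 42 were found. The study compared *Man1a2*+/+ (WT) with *Man1a2*-/- (null) newborn mice, bred from heterozygous carriers of the Man1a2tm1.1Ahe allele, which lacks exon 2 in every cell of the animal. *Man1a2* encodes a Golgi mannosidase that trims N-linked glycans. Pups of both genotypes were untreated, the liver and the lung were taken within the first hour after birth, and each genotype and tissue had 3 RNA-seq libraries, for 12 libraries in all. The null lung is known to be poorly expanded and the null pups to die of respiratory failure. Sex and litter are not given in the sources used here. The paper describes liver and lung RNA from 3 mice of each genotype. Nothing in the labels says that a number marks 1 animal, so p-values measure the spread between these libraries.

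Cells sense oxygen through the hypoxia-inducible factors (HIF). With oxygen present, the prolyl hydroxylases *Egln1*, *Egln2* and *Egln3* modify HIF alpha subunits, the *Vhl* ubiquitin ligase then marks them for destruction, and *Hif1an* blocks their activation domain. When oxygen is short, HIF1 alpha and its relative *Epas1* (HIF2 alpha) pair with *Arnt* and switch on genes for glucose uptake, glycolysis, blood vessel growth and mitophagy. The factors themselves are regulated mostly as proteins, whereas many of their targets are regulated as transcripts, and a transcript count reads the second and not the first. Birth exposes tissues to a steep rise in oxygen, and the newborn liver also holds blood-forming cells.

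HIF binds a short core sequence, ACGTG or GCGTG. The promoters of 4 members are shown because they were the members with the largest rises in lung, among the 11 that rose in liver and, without the library described next, in lung, for which the promoter table held an entry. Each is the 250 bases before the RefSeq start site on GRCm38.p6, read 5′ to 3′ on the strand of the gene, with each core match on either strand in capitals.
Bnip3: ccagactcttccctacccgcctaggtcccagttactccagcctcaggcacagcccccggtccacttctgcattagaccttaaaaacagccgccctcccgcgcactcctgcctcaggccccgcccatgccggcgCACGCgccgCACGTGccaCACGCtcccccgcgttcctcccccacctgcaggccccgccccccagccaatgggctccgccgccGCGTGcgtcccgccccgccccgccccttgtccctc
Ddit4: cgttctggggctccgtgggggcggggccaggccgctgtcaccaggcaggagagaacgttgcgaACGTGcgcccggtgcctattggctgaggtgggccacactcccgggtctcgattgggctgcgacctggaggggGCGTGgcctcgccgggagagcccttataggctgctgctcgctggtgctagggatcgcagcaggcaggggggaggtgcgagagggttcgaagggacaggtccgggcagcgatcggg
Slc2a1: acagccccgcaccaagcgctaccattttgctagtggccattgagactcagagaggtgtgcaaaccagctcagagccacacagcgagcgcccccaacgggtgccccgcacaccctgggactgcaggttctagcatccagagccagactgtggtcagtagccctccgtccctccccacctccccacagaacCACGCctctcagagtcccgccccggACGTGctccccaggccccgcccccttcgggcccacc
Hk2: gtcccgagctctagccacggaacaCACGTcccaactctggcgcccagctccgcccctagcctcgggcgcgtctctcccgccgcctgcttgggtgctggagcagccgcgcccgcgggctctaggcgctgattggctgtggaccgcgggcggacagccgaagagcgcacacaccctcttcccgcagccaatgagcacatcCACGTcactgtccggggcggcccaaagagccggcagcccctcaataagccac
The *Bnip3* stretch is chr7:138909507-138909756 (minus strand), the *Ddit4* stretch chr10:59951771-59952020 (minus), the *Slc2a1* stretch chr4:119108495-119108744 (plus) and the *Hk2* stretch chr6:82774455-82774704 (minus). *Bnip3* held 2 matches of ACGTG and 3 of GCGTG, where the palindrome CACGTG counts once on each strand and the matches start between 117 and 35 bases before the start site. *Ddit4* and *Slc2a1* held 1 match of each core, and *Hk2* held 2 of ACGTG. Of the 42 members, 38 had a RefSeq entry (250 bases before to 50 after a start site), and *Bnip3l*, *Epas1*, *Ndrg1* and *Slc2a3* had none. Of their 54 promoters, 40 (74.1%) held either core, against 43.8% of all 32851 promoters. ACGTG was in 50% of the member promoters and 19.6% of all, and GCGTG in 51.9% and 32.4%. By gene, either core was in 33 of the 38 members (86.8%) and in 46.7% of all genes with an entry. Of the 11 members that rose in both tissues, 10 had an entry and 9 of these held a core, near the share of all members. These matches are letters in a window and not binding sites, and many members were known hypoxia genes before they were listed.

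Libraries held 26759463 to 42914295 counted reads, so that 3 reads in a library stand at 0.0702 to 0.114 CPM (counts scaled to library size, here with TMM factors set within each tissue). Hepatocyte markers summed to 90724 CPM or more in all 6 livers. In 5 lungs, 8 markers of lung epithelium summed to 25675 to 34975 CPM. The library labelled null lung 1 had 442 CPM of the same markers, with the surfactant gene *Sftpc* at 35.3 CPM against 15725 to 22458 CPM in the others. Its 10 skeletal and cardiac muscle markers summed to 27580 CPM against 312 to 860 CPM, its 5 fibroblast markers to 15526 CPM against 2433 to 3190 CPM, and its 6 endothelial markers to 802 CPM against 1959 to 2795 CPM. It also shared the lowest correlations with the other lungs (0.796 to 0.822 over log CPM). The library labelled null liver 1 had 6211 CPM of muscle markers against 8.13 to 11.4 CPM in the other 5 livers, and 2061 CPM of fibroblast markers against 504 to 648 CPM. The label of null lung 1 as lung therefore goes against its markers, and values with and without these libraries are given below. *Man1a2* itself, whose reads can come from the exons that remain, stood at 67.5, 40.7 and 52.5 CPM in WT liver and 40.4, 36.8 and 38.7 CPM in null liver (log2 fold change −0.47 ± 0.17 SE, adjusted p = 0.0809). In lung it stood at 137, 99.5 and 141 CPM in WT and 56.7, 64.3 and 66.3 CPM in null (−1.01 ± 0.18, adjusted p = 0.0614), below every WT library in all 3 null libraries.

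**Figure D1:**
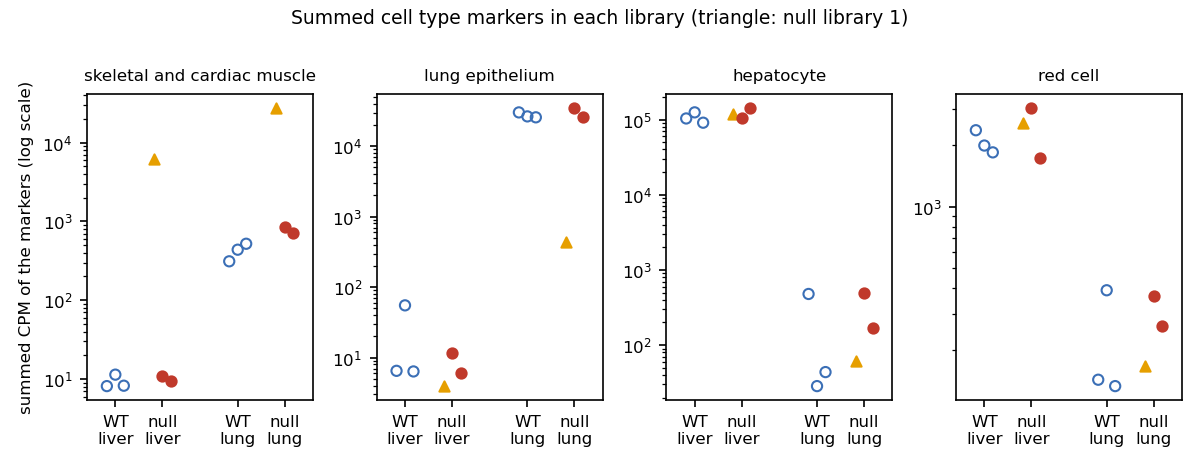
Summed CPM of marker lists on a logarithmic axis in each of the 12 libraries, with WT as open circles, null libraries 2 and 3 as filled circles and null library 1 as triangles. The muscle sum of null lung 1 is 27580 CPM and that of null liver 1 is 6211 CPM, and null lung 1 holds 442 CPM of lung epithelium markers.

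In null liver, 16 of the 41 members tested rose and none fell (39.0%, called at an adjusted p under 0.05 in edgeR's quasi-likelihood test, adjusted over all genes by Benjamini-Hochberg, and at least 1.2-fold). Across all 14343 genes tested in liver, 26.9% were called, 13.5% as higher and 13.4% as lower in null. The WT and null ranges did not overlap in 23 of the 41 members, against 46.6% of all genes. A lack of overlap alone thus sets no gene apart. The median log2 fold change was 0.50 over the 41 members and 0.02 over all genes. The largest rises were those of *Ddit4* (3.83-fold), *Vldlr* (2.67-fold), *Bnip3* (2.62-fold), *Hk2* (2.25-fold) and *Epas1* (2.15-fold). Without null liver 1, 18 members rose and none fell (background 11.9% higher, 23.8% called in all), 15 of them among the 16, and the median was 0.44. These 15, all but *Slc2a1*, ran from 0.49 (*Kdm3a*) to 1.79 (*Ddit4*) on the log2 scale without that library, with adjusted p from 0.00157 to 0.0430. Without WT liver 2, 8 members rose (background 7.55%), and without WT liver 3, 7 rose (background 5.53%). In bulk tissue, fewer cells of a type and less RNA per cell cannot be told apart.

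**Figure D2:**
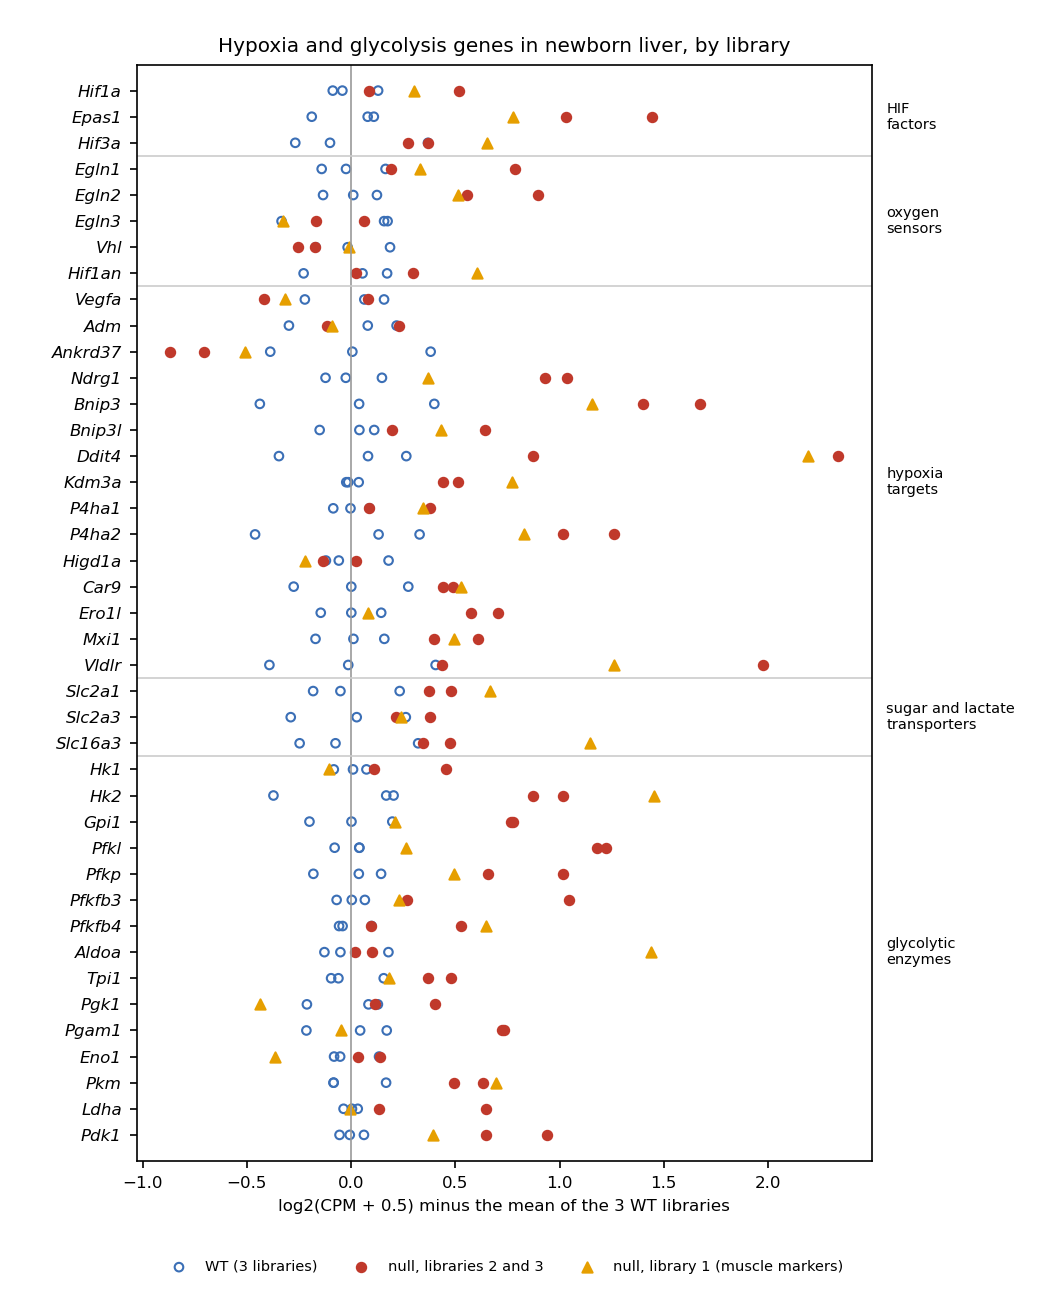
Each row is a member and each mark a liver library, placed by its log2(CPM + 0.5) minus the mean of the 3 WT libraries, with WT as open circles, null libraries 2 and 3 as filled circles and null library 1 as triangles. The null marks of *Ddit4*, *Bnip3*, *Epas1* and *Hk2* all lie to the right of the WT marks, and null library 1 stands out for *Aldoa*.

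Among the HIF factors, *Epas1* rose in liver. It stood at 136, 111 and 133 CPM in WT and 217, 258 and 343 CPM in null liver (1.11 ± 0.19 on the log2 scale, adjusted p = 0.00683), with no overlap. *Epas1* is the HIF subunit of endothelium and of the hepatic response to low oxygen. The 6 endothelial markers summed to 170 to 184 CPM in WT and 213 to 220 CPM in null livers, with *Pecam1* and *Cdh5* called higher, and their part in the *Epas1* result was not tested. *Hif1a*, the subunit found in nearly all cells, stood at 57.3, 64.6 and 55.4 CPM in WT and 72.9, 62.6 and 84.6 CPM in null (0.31 ± 0.13, adjusted p = 0.117). *Hif3a*, whose products can restrain the other subunits, stood at 20.5 to 32.2 CPM in WT and 30.1 to 39.2 CPM in null (0.42 ± 0.18, adjusted p = 0.125). The groups of both genes overlapped.

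Of the 5 oxygen sensors, *Egln2* rose in liver. It stood at 49.9, 45.1 and 54.1 CPM in WT and 70.9, 73.1 and 92.8 CPM in null (0.67 ± 0.13, adjusted p = 0.0121). Every null library was above every WT library. *Egln1*, the main HIF prolyl hydroxylase and itself a hypoxia target, stood at 31.4 to 38.9 CPM in WT and 39.7 to 60.1 CPM in null (0.46 ± 0.17, adjusted p = 0.0783). *Egln3*, the member of the family most often induced by hypoxia, stood at 19.9 to 28.5 CPM and 20.02 to 26.4 CPM (−0.16 ± 0.17). *Vhl* differed by −0.15 ± 0.13 and *Hif1an* by 0.32 ± 0.17 on the log2 scale, with overlapping groups.

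The hypoxia targets held 7 of the 16 rises. *Bnip3*, a mitophagy receptor of the outer mitochondrial membrane, stood at 173, 96.7 and 135 CPM in WT and 293, 347 and 420 CPM in null liver (1.39 ± 0.23, adjusted p = 0.00669). The lowest null library was above the highest WT library. Its relative *Bnip3l*, which clears mitochondria from maturing red cells, stood at 129 to 155 CPM in WT and 165 to 225 CPM in null, and missed the threshold (0.43 ± 0.14, adjusted p = 0.0613). *Ddit4*, which restrains mTORC1 signalling in low oxygen and is also induced by glucocorticoids, stood at 21.3, 13.8 and 18.7 CPM in WT and 82.5, 32.8 and 91.2 CPM in null (1.94 ± 0.37, adjusted p = 0.00969). Null liver 2 was lower than the other null livers, and all were above WT.

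*Ndrg1*, a stress-induced gene used as a hypoxia marker, stood at 148, 131 and 123 CPM in WT and 172, 274 and 255 CPM in null liver (0.80 ± 0.19, adjusted p = 0.0188). Null liver 1 was the lowest of the null livers, and without it the difference was 0.98. *Kdm3a*, a histone H3 lysine demethylase, stood at 33.6, 35.1 and 33.9 CPM in WT and 58.8, 49.1 and 46.6 CPM in null (0.59 ± 0.11, adjusted p = 0.00896). *P4ha2*, a collagen prolyl hydroxylase, stood at 9.14, 5.08 and 7.91 CPM in WT and 13.1, 15.0 and 17.9 CPM in null (1.06 ± 0.23, adjusted p = 0.0159). Neither gene's groups overlapped. *Mxi1*, which opposes MYC at its target genes, rose by 0.50 ± 0.11, from 34.3 to 43.2 CPM in WT to 51.0 to 59.2 CPM in null (adjusted p = 0.0184). *Vldlr*, a lipoprotein receptor, stood at 4.06, 5.60 and 3.01 CPM in WT and 10.6, 5.74 and 17.6 CPM in null (1.42 ± 0.41, adjusted p = 0.0391). Null liver 2 was just above the highest WT library.

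The other 9 hypoxia targets, *Bnip3l* among them, did not pass the test in liver or were not tested. *Ero1l*, an oxidase of the endoplasmic reticulum, stood at 48.4 to 59.3 CPM in WT and at 56.8, 80.03 and 87.7 CPM in null (adjusted p = 0.0745), and it passed without null liver 1 (0.64 ± 0.13, adjusted p = 0.0109). *Vegfa*, the main growth factor for blood vessels, stood at 62.3 to 81.3 CPM in WT and 54.3 to 77.0 CPM in null (−0.21 ± 0.16, adjusted p = 0.360). *Ankrd37* was the member with the lowest log2 fold change, at 1.56, 3.003 and 2.20 CPM in WT and 1.39, 1.15 and 0.972 CPM in null (−0.94 ± 0.30, adjusted p = 0.0557). *Car9*, a carbonic anhydrase of the cell surface, was barely present, with 0.518 to 0.991 CPM in WT and 1.17 to 1.28 CPM in null (0.72 ± 0.30, adjusted p = 0.112). *P4ha1* (0.28 ± 0.12), *Higd1a* (−0.11 ± 0.12) and *Adm* (−0.0015 ± 0.23) completed the list, with adjusted p from 0.124 to 0.997. *Epo*, the hormone that drives red cell formation, was not tested. It had at most 4 reads in any liver, 0.109, 0.124 and 0.0786 CPM in WT and 0 in null, and 0 reads in all lungs, which is at or near the 3-read floor.

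Of the 3 transporters, *Slc2a1* (GLUT1), the basal glucose carrier, rose in liver. It stood at 78.7, 58.9 and 64.6 CPM in WT and 107, 93.4 and 86.8 CPM in null (0.50 ± 0.14, adjusted p = 0.0347), and every null library was above WT. Without null liver 1 it missed the threshold (0.42 ± 0.15, adjusted p = 0.0692). *Slc16a3* (MCT4), which exports lactate, stood at 10.2 to 15.3 CPM in WT and at 27.5, 17.1 and 15.6 CPM in null. The highest value was in null liver 1, and the log2 difference was 0.70 ± 0.25 with it (adjusted p = 0.0717) and 0.41 ± 0.19 without it (adjusted p = 0.149). *Slc2a3* (GLUT3) differed by 0.27 ± 0.15 (adjusted p = 0.210). Per kilobase of exon, *Slc2a1* was the most abundant of the 3 in WT liver, at 19.2 RPKM against 3.80 for *Slc2a3* and 2.32 for *Slc16a3*.

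Of the 15 glycolytic enzymes and regulators, 6 rose in liver. *Hk2*, the inducible hexokinase that traps glucose as glucose 6-phosphate, stood at 7.45, 4.83 and 7.26 CPM in WT and 18.4, 12.2 and 13.5 CPM in null (1.17 ± 0.23, adjusted p = 0.0104). *Hk1*, the constitutive form, stood at 80.5 to 89.7 CPM in WT and 79.2 to 117 CPM in null (0.17 ± 0.15, adjusted p = 0.430). *Gpi1*, which isomerises glucose 6-phosphate, stood at 352, 267 and 307 CPM in WT and 356, 526 and 523 CPM in null (0.60 ± 0.18, adjusted p = 0.0474). Null liver 1 lay just above the highest WT library.

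The phosphofructokinase *Pfkl*, the liver form of the committed step, stood at 54.8, 50.4 and 54.8 CPM in WT and 64.0, 125 and 121 CPM in null (0.95 ± 0.24, adjusted p = 0.0246). Without null liver 1, the lowest of the null livers, the rise was 2.31-fold. The platelet form *Pfkp* stood at 8.51 to 10.8 CPM in WT and 13.9 to 20.2 CPM in null (0.76 ± 0.17, adjusted p = 0.0176). *Pkm*, the pyruvate kinase of tissues other than the adult hepatocyte, stood at 134, 134 and 160 CPM in WT and 231, 221 and 201 CPM in null (0.61 ± 0.12, adjusted p = 0.0117). *Pdk1*, which switches off pyruvate dehydrogenase, stood at 65.1, 60.0 and 62.1 CPM in WT and 82.1, 120 and 97.9 CPM in null (0.68 ± 0.15, adjusted p = 0.0153). None of the groups of these 4 genes overlapped. The 6 markers of dividing cells summed to 943 to 1036 CPM in WT and 1072 to 1564 CPM in null livers, with 3 of the 6 called higher, and neutrophil markers to 1667 to 3334 and 2379 to 3688 CPM, with 2 of 7 called higher. The part of either in these rises was not tested. Red cell markers overlapped between genotypes, at 1839 to 2358 CPM in WT and 1728 to 3031 CPM in null, with 1 of 6 tested called higher and 1 lower, and so did hepatocyte markers, at 90724 to 124524 and 104675 to 142908 CPM.

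The other 9 enzymes and regulators, *Hk1* among them, did not pass the test in liver. *Aldoa*, the aldolase of muscle and red cells, stood at 153, 145 and 179 CPM in WT and 430, 169 and 160 CPM in null. The value of 430 CPM was in null liver 1, the library with muscle markers, and the log2 difference was 0.67 ± 0.37 with it and 0.06 ± 0.14 without it. *Pgam1* stood at 58.1 to 76.1 CPM in WT and at 65.3, 113 and 112 CPM in null (adjusted p = 0.121), and rose without null liver 1 (0.73 ± 0.14, adjusted p = 0.00950). *Pfkfb3*, a kinase that makes the activator of phosphofructokinase, stood at 10.9 to 12.1 CPM in WT and at 13.6, 13.97 and 24.3 CPM in null (adjusted p = 0.0957, and 0.0442 without null liver 1). Its relative *Pfkfb4* differed by 0.47 ± 0.19, *Tpi1* by 0.34 ± 0.13, *Ldha* by 0.29 ± 0.18 and *Pgk1* by 0.06 ± 0.21, with adjusted p from 0.0846 to 0.851. *Ldha*, which makes lactate from pyruvate, was the most abundant member per kilobase in WT liver, at 500.3 RPKM. *Eno1* is uncertain, with 23 to 43 reads per liver and 14 to 35 on its near-identical copy *Eno1b*, between which the counting may have divided or lost reads.

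In lung, none of the 41 members tested passed the threshold with all 6 libraries, by edgeR's quasi-likelihood test, against 0.327% of all 15591 genes. The WT and null ranges of these 6 libraries did not overlap in 17 of the 41 members, against 36.1% of all genes. Of the members, 11 had an unadjusted p under 0.05 in edgeR's test, a count with no share of all genes beside it. DESeq2 called 7 as higher (*Ddit4*, *Ndrg1*, *Mxi1*, *Slc2a1*, *Hk2*, *Gpi1* and *Bnip3*), against 7.32% of all genes higher and 15.1% called. Null lung 1, which held little lung epithelial RNA, was more than 2 times above every other lung library for 7 members and below 0.5 times every other for 4. Without it, 17 members rose and *Vegfa* fell (43.9% of 41), against 37.0% of all 15885 genes called, 18.0% higher and 19.0% lower. The share of members called in either direction was thus near the background, and the share called higher was above it. The median log2 fold change of the members was 0.34 without null lung 1 and 0.52 with it, and the median of all genes was −0.01 and 0.06. Only 2 null lungs remain in that comparison. Besides members, 8 of 10 muscle markers (718 and 860 CPM against 312 to 520 CPM in WT) and 4 of 7 neutrophil markers (611 and 643 CPM against 236 to 388 CPM) were higher in these 2 null lungs. Of 6 endothelial markers, 2 were called higher and 1 lower, and 2 of 6 macrophage markers were called higher. The red cell, lung epithelium, fibroblast and dividing cell lists each had 1 marker called higher. The part of any of these markers in the members' values was not tested.

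**Figure D3:**
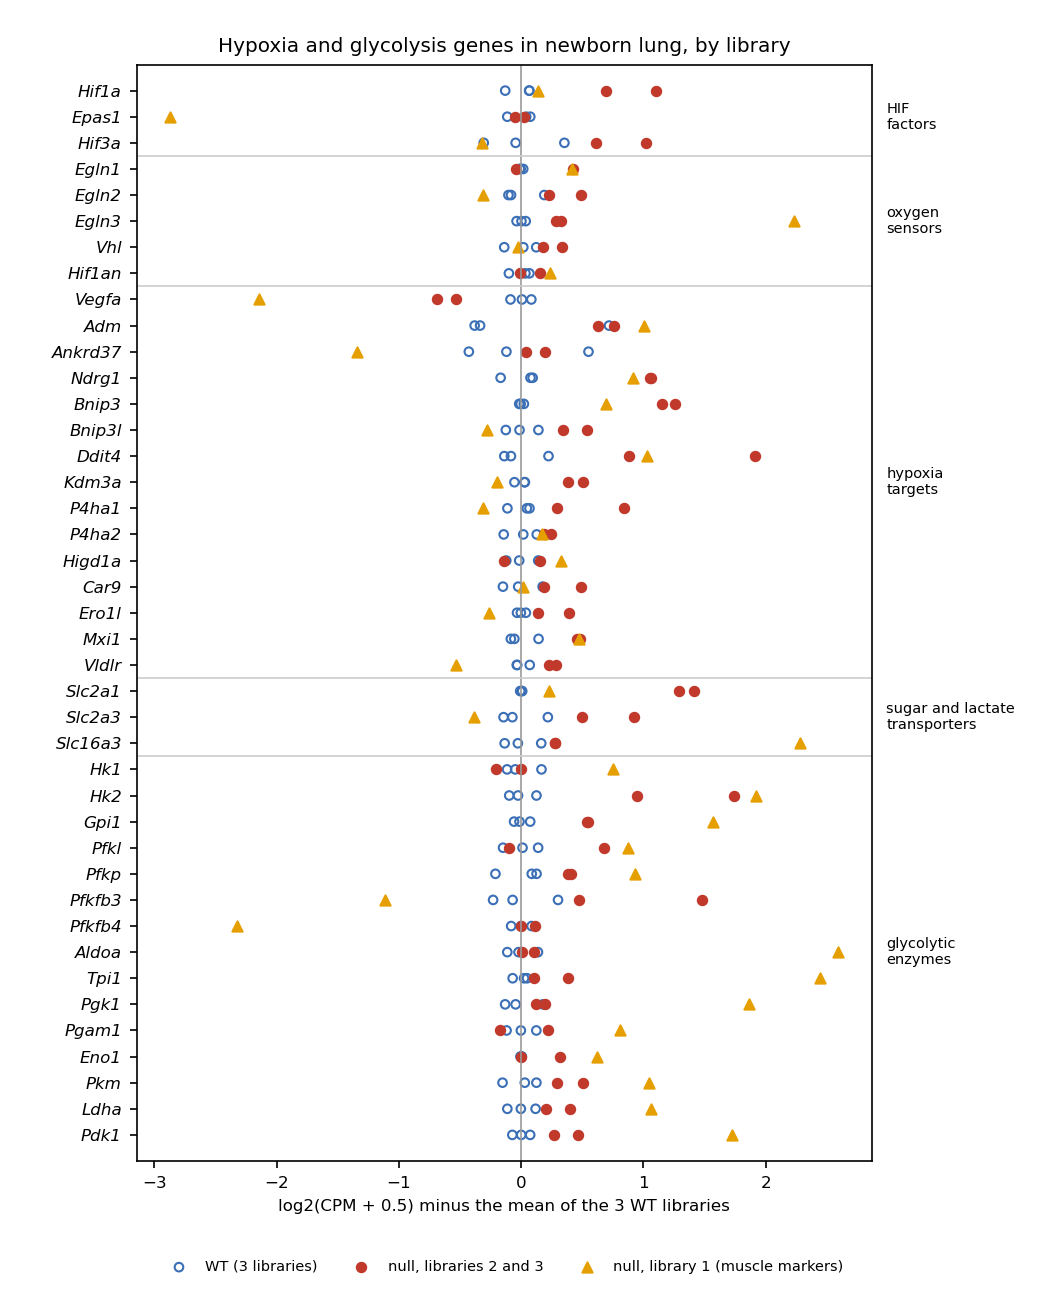
Each row is a member and each mark a lung library, placed by its log2(CPM + 0.5) minus the mean of the 3 WT libraries, with WT as open circles, null libraries 2 and 3 as filled circles and null library 1 as triangles. Null library 1 lies far from the other null libraries for *Epas1*, *Vegfa*, *Pfkfb4*, *Aldoa*, *Tpi1* and *Egln3*, and together with them for *Ndrg1*, *Ddit4* and *Mxi1*.

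The HIF factors differed from one another in lung. *Hif1a* stood at 130, 149 and 148 CPM in WT lung, at 305 and 230 CPM in null lungs 2 and 3 and at 156 CPM in null lung 1. It rose without null lung 1 (0.91 ± 0.14, adjusted p = 0.00303), and the difference with it was 0.69 ± 0.26 (adjusted p = 0.172). *Hif3a* stood at 67.2, 42.3 and 50.8 CPM in WT, 80.6 and 107 CPM in null lungs 2 and 3, and 41.8 CPM in null lung 1 (0.81 ± 0.20 without it, adjusted p = 0.0181, and 0.52 ± 0.36 with it, adjusted p = 0.407). *Epas1*, abundant in lung endothelium and alveolar cells, stood at 1207, 1180 and 1060 CPM in WT and 1164 and 1105 CPM in null lungs 2 and 3. These ranges overlapped (−0.02 ± 0.10, adjusted p = 0.904). Null lung 1 had 156 CPM. None of the 5 oxygen sensors passed the test in lung, with or without null lung 1. Without it their log2 differences ran from 0.07 (*Hif1an*) through 0.21 (*Egln1*), 0.25 (*Vhl*) and 0.31 (*Egln3*) to 0.36 (*Egln2*, adjusted p = 0.0637). *Egln3* stood at 82.6 CPM in null lung 1 against 16.8 to 21.7 CPM in the others.

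Among the targets, *Ddit4* stood at 64.0, 79.3 and 61.6 CPM in WT lung and at 139, 126 and 256 CPM in null lungs 1 to 3. All null lungs were above all WT lungs, with a log2 difference of 1.35 ± 0.31 over the 6 libraries (adjusted p = 0.0835) and 1.48 ± 0.27 without null lung 1 (adjusted p = 0.00545). *Ndrg1* stood at 46.5, 39.2 and 47.1 CPM in WT and 83.7, 92.9 and 91.9 CPM in null (1.01 ± 0.13, adjusted p = 0.0529 with all libraries, and 1.06 ± 0.11, adjusted p = 0.00102, without null lung 1). *Bnip3* was at 73.2, 75.2 and 73.8 CPM in WT and 120, 165 and 178 CPM in null (1.06 ± 0.18, adjusted p = 0.0576, and 1.21 ± 0.09, adjusted p = 0.000474). The 3 WT lungs were nearly equal, and the null lungs lay above them. *Mxi1* stood at 52.6, 61.7 and 53.7 CPM in WT and 77.9, 78.1 and 76.8 CPM in null (0.47 ± 0.12, adjusted p = 0.0971, and 0.47 ± 0.11, adjusted p = 0.0138, without null lung 1).

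*Kdm3a*, *P4ha1* and *Bnip3l* also rose without null lung 1, by 0.44, 0.59 and 0.44 on the log2 scale (adjusted p from 0.00901 to 0.0239). With it the differences were 0.26 ± 0.20, 0.35 ± 0.29 and 0.24 ± 0.24, with adjusted p from 0.449 to 0.560. In each of the 3, null lung 1 lay below every WT lung. *Kdm3a* stood at 105, 99.3 and 105 CPM in WT, 135 and 146 CPM in null lungs 2 and 3 and 89.99 CPM in null lung 1. *Bnip3l* stood at 203, 244 and 219 CPM in WT, 322 and 281 CPM in null lungs 2 and 3 and 182 CPM in null lung 1. Null lungs 2 and 3 were thus above WT for both genes. *P4ha1*, a collagen prolyl hydroxylase like *P4ha2*, stood at 94.4, 95.9 and 84.5 CPM in WT, 164 and 112 CPM in null lungs 2 and 3 and 73.6 CPM in null lung 1. *Vegfa* was the member that fell, at 373, 420 and 398 CPM in WT, 274 and 246 CPM in null lungs 2 and 3 and 89.0 CPM in null lung 1. The fall was 1.53-fold without null lung 1 (−0.61 ± 0.11, adjusted p = 0.00501), and with it the difference was −0.97 ± 0.41 (adjusted p = 0.210). *Vegfa* in the lung comes largely from alveolar epithelium. The 8 lung epithelium markers, airway genes among them, summed to 25675 to 30157 CPM in WT lung. In null lungs 3 and 2 they summed to 26220 and 34975 CPM. Their part in the *Vegfa* values was not tested. The remaining targets that were tested, *Adm*, *Ankrd37*, *P4ha2*, *Higd1a*, *Car9*, *Ero1l* and *Vldlr*, ran from 0.01 to 0.62 without null lung 1 and did not pass.

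The transporter *Slc2a1* hardly varied among the WT lungs and rose without null lung 1. It stood at 46.2, 46.8 and 46.5 CPM in WT and at 125 and 115 CPM in null lungs 2 and 3, whereas null lung 1 had 54.6 CPM. The rise was 2.57-fold without null lung 1 (1.36 ± 0.09, adjusted p = 0.000406) and the difference with it 1.08 ± 0.31 (adjusted p = 0.119). *Slc2a3*, the high-affinity glucose carrier of neurons and leukocytes, stood at 13.4 to 17.4 CPM in WT and 21.3 and 28.7 CPM in null lungs 2 and 3 (0.74 ± 0.18, adjusted p = 0.0172). Null lung 1 had 11.3 CPM, and the difference with it was 0.45 ± 0.35 (adjusted p = 0.452). *Slc16a3* stood at 52.4 CPM in null lung 1 and at 9.43 to 12.7 CPM in the other 5, and did not pass without it (0.28 ± 0.16, adjusted p = 0.195).

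Among the enzymes, *Hk2* stood at 18.3, 16.4 and 15.6 CPM in WT lung and at 64.8, 57.0 and 32.8 CPM in null lungs 1 to 3. All null lungs were above WT (1.62 ± 0.27, adjusted p = 0.0582, and 1.42 ± 0.22, adjusted p = 0.00311, without null lung 1). *Gpi1* stood at 168 to 184 CPM in WT, 256 and 253 CPM in null lungs 2 and 3 and 519 CPM in null lung 1 (0.54 ± 0.09 without it, adjusted p = 0.00480, and 0.97 ± 0.32 with it, adjusted p = 0.142). *Pfkfb3* stood at 97.2, 67.1 and 75.02 CPM in WT, 110 and 220 CPM in null lungs 2 and 3 and 36.2 CPM in null lung 1 (1.05 ± 0.28 without it, adjusted p = 0.0219, and 0.61 ± 0.60 with it, adjusted p = 0.549). Its null lungs disagreed by more than the WT lungs did. *Pkm*, *Pfkp* and *Pdk1* rose by 0.40, 0.39 and 0.37 without null lung 1 (adjusted p from 0.0312 to 0.0468), and in each null lung 1 was above the other null lungs. With it the differences were 0.65 ± 0.24, 0.59 ± 0.20 and 0.98 ± 0.40, with adjusted p from 0.151 to 0.198. *Pkm* stood at 395, 348 and 421 CPM in WT and at 800.4, 550.1 and 472 CPM in null lungs 1 to 3. *Pfkp* stood at 42.7, 33.7 and 41.5 CPM in WT and at 74.9, 51.9 and 51.02 CPM in null. *Pdk1* stood at 49.7, 52.3 and 47.2 CPM in WT and at 166, 68.6 and 60.1 CPM in null. The groups of these 3 genes did not overlap.

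*Aldoa*, *Tpi1* and *Pgk1* were highest in null lung 1. *Aldoa* stood at 1423 CPM there against 218 to 259 CPM in the other 5 lungs, *Tpi1* at 714 CPM against 125 to 171 CPM, and *Pgk1* at 261 CPM against 65.1 to 81.8 CPM. Muscle is rich in these enzymes, and the part of the muscle RNA of this library (27580 CPM of markers) in these values was not tested. Without it, *Aldoa* (0.05 ± 0.11), *Tpi1* (0.25 ± 0.11), *Pgk1* (0.15 ± 0.12), *Pgam1* (0.03 ± 0.15), *Ldha* (0.30 ± 0.11), *Hk1* (−0.11 ± 0.13), *Pfkl* (0.34 ± 0.22), *Pfkfb4* (0.06 ± 0.11) and the uncertain *Eno1* (0.31 ± 0.35) did not pass, with adjusted p from 0.0740 to 0.877.

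**Figure D4:**
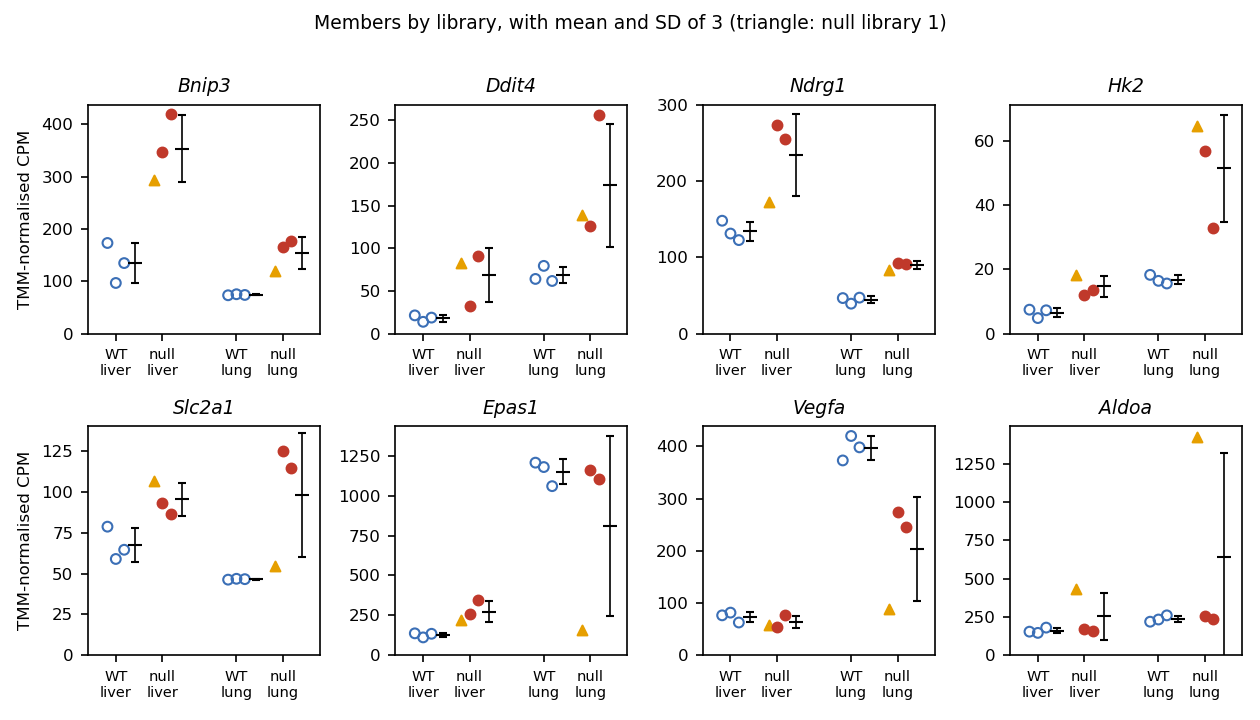
CPM of 8 members in each library, on axes that start at 0, with WT as open circles, null libraries 2 and 3 as filled circles, null library 1 as triangles, and bars for the mean and SD of 3 libraries (lower ends under 0 are not drawn). *Bnip3*, *Ddit4*, *Ndrg1* and *Hk2* are higher in all null libraries of both tissues, whereas *Epas1* and *Aldoa* in lung turn on null library 1, at 156 and 1423 CPM. *Vegfa* in lung is below every WT library in all null libraries, and is lowest in null library 1, at 89.0 CPM.

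Both tissues shared 11 of the called members, namely *Ndrg1*, *Bnip3*, *Ddit4*, *Kdm3a*, *Mxi1*, *Slc2a1*, *Hk2*, *Gpi1*, *Pfkp*, *Pkm* and *Pdk1*, when lung was taken without null lung 1. These are 11 of the 16 liver calls (all higher) and of the 18 lung calls, and 11 of 41 members is 26.8%. Of 13929 genes tested in both fits, 7.60% were called higher in both tissues. With null liver 1 left out as well, 11 members were again shared, with *Pfkfb3* in place of *Slc2a1*. By the paper's description, the liver and the lung of a genotype came from the same 3 mice. The overlap is thus not from independent samples, and no test of it is given. The difference between the tissues was tested as an interaction, in a main fit that took the 12 libraries as independent. With all 12 libraries, 0 of 41 members passed by edgeR (3 had an unadjusted p under 0.05, namely *P4ha2*, *Vldlr* and *Egln3*, and DESeq2 called 0), against 0.371% of all genes. Without null liver 1 and null lung 1, an alternative chosen after seeing the data, 2 members passed, *Slc2a1* and *Epas1* (background 5.18%). The genotype difference of *Slc2a1* was larger in lung than in liver by 0.94 on the log2 scale (adjusted p = 0.0138), and that of *Epas1* was smaller in lung, with an interaction of −1.26 (adjusted p = 0.0139). With liver and lung of the same number in 1 block, also chosen after seeing the data, these interactions were 0.94 ± 0.17 (adjusted p = 0.0178) and −1.25 ± 0.28 (adjusted p = 0.0331), and *P4ha2* (−0.96 ± 0.21, adjusted p = 0.0317) and *Pfkl* (−0.91 ± 0.23, adjusted p = 0.0487) passed as well (4 of 41, background 6.13%). Without null lung 1 alone and without the block, the interactions of *Slc2a1* and *Epas1* were 0.88 ± 0.17 (adjusted p = 0.0201) and −1.10 ± 0.26 (adjusted p = 0.0404). For the other 37 a difference between tissues was not detected at this size of experiment.

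**Figure D5:**
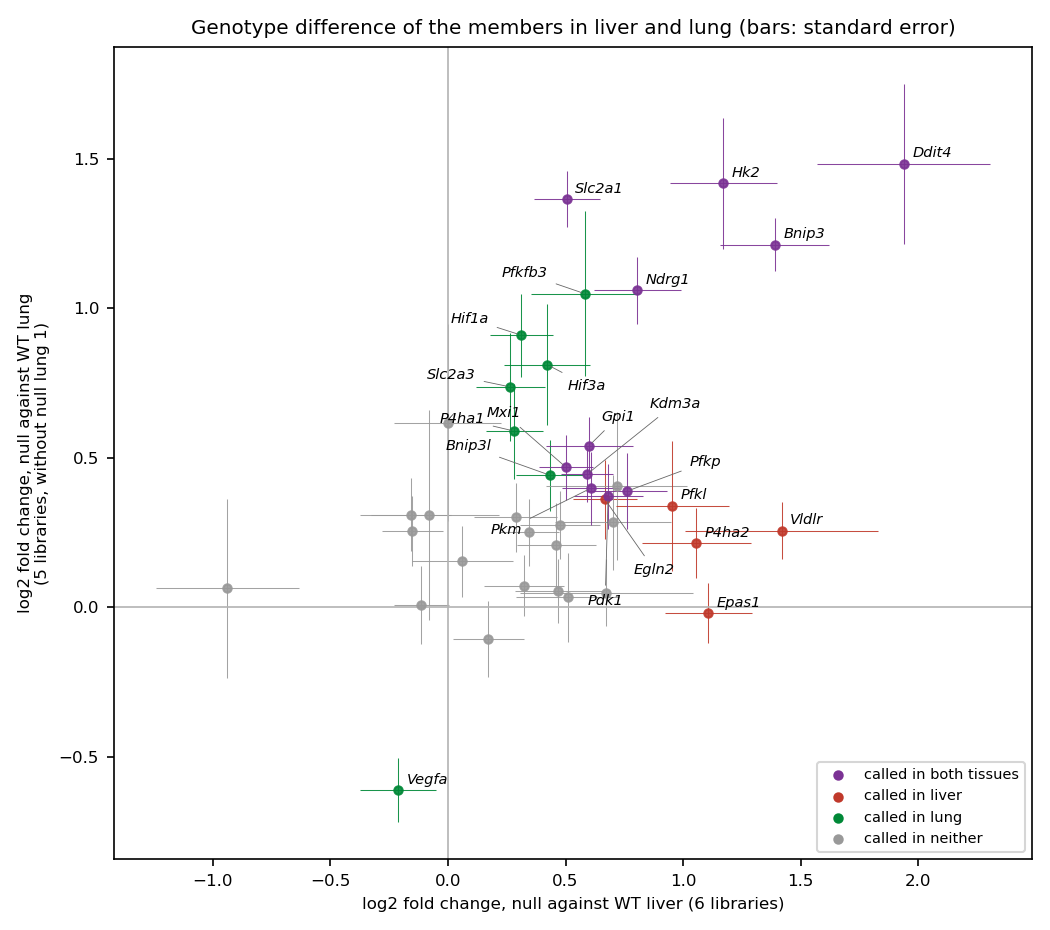
Log2 fold changes of the 41 tested members, null against WT, in liver (6 libraries, horizontal) and lung (5 libraries, without null lung 1, vertical), with bars of 1 standard error and colours for the calls. *Ddit4*, *Bnip3*, *Hk2* and *Ndrg1* lie high on both axes, *Slc2a1* is high on the lung axis, *Epas1* is high on the liver axis at −0.02 on the lung axis, and *Vegfa* lies below 0 in lung.

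The pathway has further genes outside the 42. Of 65 listed (10 HIF partners and turnover genes, 29 further hypoxia targets and 26 further glycolysis genes), 64 were tested in liver, and 9 rose and 4 fell (20.3%, background 26.9%). *Crebbp*, a coactivator of HIF, stood at 15.4, 13.3 and 14.6 CPM in WT and 28.0, 26.6 and 32.7 CPM in null liver (1.01 ± 0.12, adjusted p = 0.00292). *Arnt*, the shared partner of the alpha subunits, stood at 37.6, 29.9 and 36.3 CPM in WT and 59.2, 53.1 and 70.4 CPM in null (0.81 ± 0.14, adjusted p = 0.00704). Neither gene's groups overlapped. *Edn1*, the vasoconstrictor endothelin, rose from 1.77, 1.21 and 1.70 CPM to 3.55, 7.02 and 4.83 CPM (1.71 ± 0.30, adjusted p = 0.00791). *Rora*, a nuclear receptor of the circadian clock, rose by 1.22 ± 0.15, and the VEGF receptor *Flt1* by 0.75 ± 0.20.

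*Hmox1*, which degrades haem and is a HIF target in many cells, fell, from 363, 280 and 443 CPM in WT to 104, 111 and 174 CPM in null liver (−1.48 ± 0.24, adjusted p = 0.00661). The chemokine *Cxcl12* fell from 252, 295 and 261 CPM to 120, 160 and 123 CPM (−1.002 ± 0.15, adjusted p = 0.00477). The directions of the targets were thus mixed. *Pdhx* (−0.46 ± 0.14) and the lactate carrier *Slc16a1* (−0.37 ± 0.11) also fell. In lung, *Bhlhe40*, a repressor induced by hypoxia, was the only one of 65 called with all 6 libraries, at 28.5, 34.6 and 29.5 CPM in WT and 72.9, 92.7 and 81.0 CPM in null (1.41 ± 0.15, adjusted p = 0.049972). Without null lung 1, 19 rose and 13 fell (49.2%, background 37.0%, with 18.0% higher and 19.0% lower). Of the 29 further hypoxia targets, 6 rose and 9 fell in these libraries. Of the 26 further glycolysis genes, 9 rose and 3 fell, and of the 10 HIF partners and turnover genes, 4 rose and 1 fell. Chosen after their values were seen, *Edn1* rose by 1.88, *Rora* by 1.30, *Pdk4* by 1.47, *Crebbp* by 0.88 and *Arnt* by 0.45 in these libraries, and *Cxcr4* (−1.78), *Pgf* (−1.86), *Cxcl12* (−1.25) and *Angptl4* (−0.86) fell. *Angptl4*, *Pgf* and *Cxcl12* are targets of HIF in other settings.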

How the data were processed

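RNA of newborn liver and lung of WT and null mice was sequenced as stranded polyadenylated libraries. The authors deposited raw counts in 1 table for each library, as whole reads listed by gene symbol and not normalized. The submitters' processing notes name STAR 2.5.2a, FastQC, DESeq2 and the build mm10. The counting program, its annotation and its use of strand are not given in the sources used here, so genes that overlap or oppose another gene could share reads. Such an overlap in GENCODE M21 (GRCm38) holds for *Hif1a*, *Ndrg1*, *Bnip3*, *Slc2a1*, *Hk2*, *Gpi1*, *Pfkp*, *Mxi1*, *Egln2*, *Ankrd37*, *Aldoa* and *Tpi1*, among others. Spreadsheet software had turned 27 symbols into dates, and none was a member. GENCODE gave exon lengths for 98.3% of symbols, used for RPKM.

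Differential expression used edgeR 4.0.16 in R 4.3.3 (filterByExpr, TMM, quasi-likelihood test, Benjamini-Hochberg over all genes, called at adjusted p under 0.05 and 1.2-fold). The standard error of a log2 fold change was its size divided by the root of F. The members and the other pathway lists were chosen with earlier results of these data known, so no p over a list is given. All 42 members are named, and of the other pathway genes the 5 largest rises and falls that were called in a tissue at a mean of 1 log2 CPM or more. Outside this rule, *Pdk4*, *Cxcr4*, *Pgf* and *Angptl4* were named after their values were seen, as were the lung values of *Edn1*, *Rora*, *Crebbp*, *Arnt* and *Cxcl12*. The counts of the other pathway lists include 1 gene whose result is not reported here. Groups came from the sample titles. Between WT and null, the deviations of libraries of the same number from their group means had correlations of −0.0447 to 0.185. Between liver and lung of 1 genotype these were 0.199 to 0.363, so numbers may pair liver with lung. The highest, 0.363, was between null liver 1 and null lung 1, which both had raised muscle markers. Libraries of unlike number were not compared in this way. The lowest chi-square per gene between libraries of a group was far above 1, and none was counted as a copy. In each tissue, edgeR, DESeq2, the GC and length correction and the replicate block were run on simulated data. So was the interaction over all 12 libraries without the block. The other fits were not, and no simulated library stood apart as null lung 1 did.

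Alternatives were DESeq2 1.42.0, other size factors, other count minimums (10 or 1), no minimum fold, all 12 libraries in 1 fit, removal of haemoglobin and the 20 most abundant genes, removal of a trend on GC content and length (lowess span 0.3), a replicate block, and omission of single libraries. Two-sided exact permutation tests of log2(CPM + 0.5) cannot go below p = 0.1 with 3 against 3, a value reached by 23 of 41 members in liver (46.6% of all genes) and 17 in lung (36.1%).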

Additional observations from a re-analysis of the deposited data

How the results depend on the processing

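Of 41 member values in each tissue, none reversed its sign while called under any alternative. In liver, the count of 16 members stayed within 1.5 times except with all 12 libraries in 1 fit (9), and leaving out 1 library gave 7 to 18, where 7 was without WT liver 3 and 8 without WT liver 2. DESeq2 called 22 of 42 in liver, of which *Ankrd37* was lower. That count has no share of all genes beside it, so it is not set above a background. *Gpi1* was called under 5 of 9 alternatives that keep all libraries and *Slc2a1* under 7, whereas *Ndrg1*, *Bnip3*, *Ddit4*, *P4ha2*, *Mxi1*, *Hk2*, *Pfkl* and *Pfkp* were called under all 9. The median log2 fold change in liver was 0.40 with upper-quartile factors and 0.44 to 0.55 with 1 library left out, and in lung 0.34 to 0.54, the lowest without null lung 1. In lung, 0 members became 7 with DESeq2 or with all 12 libraries in 1 fit, 1 with upper-quartile factors or a minimum of 10 counts, and 0 to 18 with 1 library left out (18 without null lung 1). Of the other pathway genes, all 12 libraries in 1 fit called 5 in liver and 11 in lung, and leaving out a library gave 6 to 17 in liver (8, 7 and 6 without WT liver 1, 2 and 3) and 0 to 32 in lung (32 without null lung 1). In lung, DESeq2 called 12 of them, upper-quartile factors 2, a minimum of 10 counts 3, and DESeq2 size factors, a minimum of 1 count, removal of haemoglobin and abundant genes, removal of the GC and length trend, and the replicate block each 0. With the replicate block, 15 members were called in liver, 0 in lung and 0 for the tissue difference, and 11 other pathway genes in liver, and it moved no other count by over 1.5 times. Samples of WT and null share only a number. The tissue difference held 0 to 2 members with 1 library left out and 2 without null liver 1 and null lung 1, or 4 when the replicate block was added to that last fit. Except for the left-out libraries, the cause of these shifts was not tested. The counts in this paragraph carry no share of all genes, and that share moved with the setting as well. In lung it was 0.327% with all 6 libraries and 37.0% without null lung 1. A count here is thus not a result about the members or the other pathway genes. With null lung 1, lung libraries varied more than liver libraries (common dispersion 0.172 against 0.0542), which limits what 6 libraries can show. Without it the lung value was 0.0273, below that of liver. Genes near 3 reads, such as *Epo*, cannot be read.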
